A study of Homo sapiens with 12 samples.

Results

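H3K4me3, trimethylation of lysine 4 of histone H3, was compared in position with H3K36me3, trimethylation of lysine 36, along the 22 autosomes of RWPE-1 cells. All 27415 autosomal H3K4me3 peaks entered, of 28961 in the deposited list and 458841 peaks in the 5 lists of the series. The 112270 autosomal H3K36me3 peaks, of 114009, were joined wherever the gap between them was at most 5 kb, which gave 29596 regions. Of these, 5428 held at least 5 kb of H3K36me3 and were used to ask where H3K4me3 lies along a region.

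RWPE-1 is a line of normal human prostate epithelial cells immortalised with HPV18. The 12 libraries were 2 of each of 5 histone marks (H3K4me3, H3K36me3, H3K27ac, H3K4me1 and H3K27me3), 1 input and 1 DNase library. All came from untreated cells of passage below 20 in keratinocyte serum-free medium with bovine pituitary extract and EGF. The 2 libraries of a mark are represented by 1 deposited peak list, so no value below has a replicate error, and no test between samples was possible. The line models prostate epithelium only as far as 1 immortalised culture can.

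H3K4me3 marks active and poised promoters, where it is laid down around transcription start sites by the SET1 and MLL complexes. H3K36me3 is deposited by SETD2, which travels with elongating RNA polymerase II, and therefore accumulates over the bodies of transcribed genes. At a transcribed gene the first mark thus sits at the start and the second over the body. H3K27ac marks active promoters and enhancers, H3K4me1 marks enhancers and the borders of promoters, and H3K27me3 is the Polycomb mark of repressed genes.

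The lists differ in build. The median H3K4me3 peak was 1358 bases wide, and together they covered 44.8 Mb, 1.56% of the 2880 Mb spanned by peaks on these chromosomes. H3K36me3 peaks were shorter, with a median of 638 bases, but covered 108 Mb, 3.76% of the span. The 5428 larger regions were 18.3% of the joined regions and held 70.0% of the H3K36me3 bases. Their median length was 19865 bases (quartiles 13443 and 30478), of which a median of 56.2% lay in peaks.

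Most H3K4me3 peaks had no H3K36me3 to speak of in their surroundings. Those that had it usually had it on 1 side, though little more often than positions along the chromosomes. On each side of a peak, the flank from 2 to 30 kb from its edge was called covered when at least 10% of it, 2.8 kb, lay in H3K36me3 peaks. Of the 27415 peaks, 7622 had 1 covered flank, 27.8% (95% Wilson interval 27.3 to 28.3), and 4059 had 2, 14.8% (14.4 to 15.2). The remaining 15734 peaks, 57.4%, had none. Among positions taken every 1000 bases along the same chromosomes, 10.3% had 1 covered flank and 6.14% had 2. Of the H3K4me3 peaks with any covered flank 65.3% had only 1, near the 62.5% of such positions. The intervals cover counting error only, treat neighbouring peaks as independent and hold no error of culture, antibody or peak calling.

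Those positions include assembly gaps and other stretches without any peak. Over only the positions within 30 kb of a peak of any mark, a set added later, 12.6% had 1 covered flank and 7.53% had 2, still below the H3K4me3 peaks. H3K27ac peaks that touched no H3K4me3 peak gave a closer comparison. Of these 43368 peaks, 22.1% had 1 covered flank and 14.4% had 2, the second close to the 14.8% of all H3K4me3 peaks. Both were below the shares of the H3K4me3 peaks with H3K27ac only, given further on. Those were wider, at a median of 1987 against 1017 bases. Under 1000 bases in width they had 27.9% and 15.3%. With a deposited peak score from 100 to just under 300 they had 25.4% and 12.8%.

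H3K4me3 peaks lay above the positions of their own chromosome in the share with any covered flank on 22 of 22 chromosomes. The share with 1 covered flank ran from 17.1% on chromosome 4 to 39.7% on chromosome 22. The share with 2 ran from 4.14% on chromosome 4 to 45.6% on chromosome 19. Chromosome 19 alone moved the whole-genome share with 2 covered flanks to 12.5% when it was left out.

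The other marks at the H3K4me3 peak went with its H3K36me3 flanks. Of the 15825 peaks that touched H3K27ac and not H3K27me3, 40.02% had 1 covered flank and 20.3% had 2. Of the 2960 peaks that touched only H3K27me3, 12.4% had 1 and 1.66% had 2, and the other 86.0% had none. The 1236 peaks with both K27 marks lay between these groups, at 18.8% and 4.29%. Among the groups by K27 mark, only in the 7394 peaks with neither were 2 covered flanks as common as 1, at 10.1% against 9.35%. These peaks were narrow, with a median of 679 bases. On average 13.9% of such a peak lay in H3K36me3, against 7.48% over all H3K4me3 peaks. H3K4me1 divided the peaks as well: 38.9% of the 13901 peaks that touched it had 1 covered flank and 22.4% had 2, against 16.3% and 7.03% of the 13514 that did not.

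**Figure D1:**
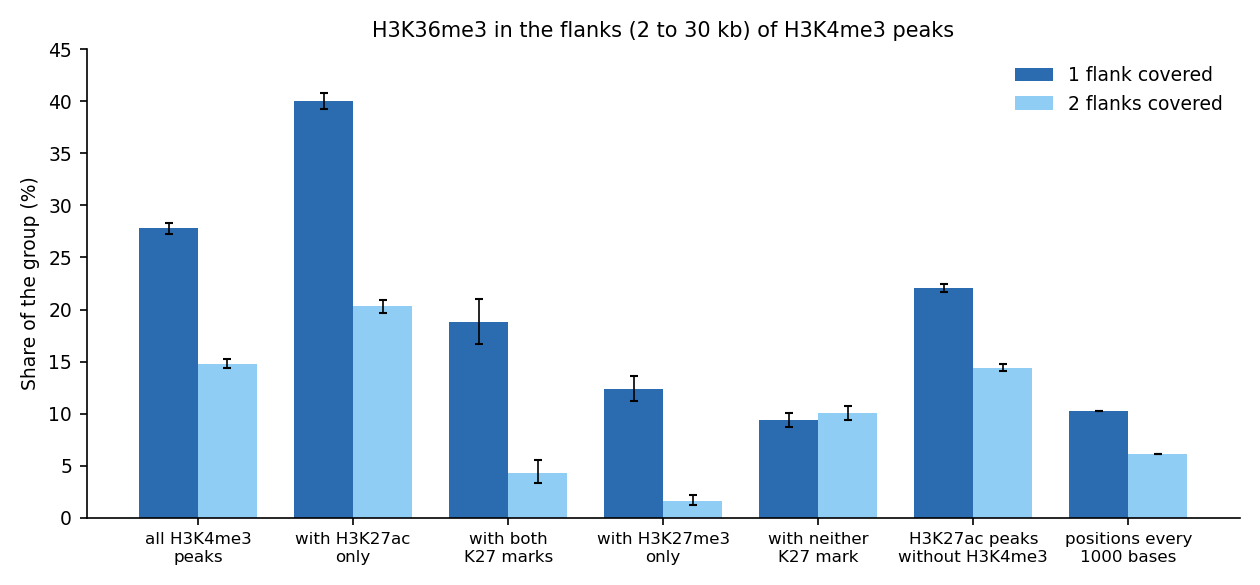
Share of each group (%) with 1 flank (dark bars) or 2 flanks (light bars) covered by H3K36me3, for H3K4me3 peaks divided by K27 mark, for H3K27ac peaks without H3K4me3 and for positions every 1000 bases. Error bars are 95% Wilson intervals. Peaks with H3K27ac alone reach 40.02% and 20.3%, and peaks with H3K27me3 alone fall to 12.4% and 1.66%.

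Wider and higher-scoring H3K4me3 peaks more often had H3K36me3 beside them. The score is the peak caller's value for each peak as deposited by the authors, and it is used here only to rank peaks within a list. The share with 1 covered flank was 15.4% for peaks under 500 bases, 26.7% from 1 to 2 kb, 47.2% from 3 to 4 kb and 46.5% from 4 kb upward. By score it was 13.8% below 100 and 47.8% at 3100 and above, where scores reach their ceiling. Peaks of like score still differed by acetylation. Among those scoring from 1000 to just under 3100, 44.9% of the 5761 with H3K27ac only had 1 covered flank, against 5.17% of the 232 without H3K27ac. The gap was smaller at lower scores. From 300 to just under 1000 it was 34.8% of 2393 against 12.5% of 848, and from 100 to just under 300 25.4% of 1987 against 11.3% of 2238. The groups without H3K27ac include peaks with H3K27me3, which the others leave out, so Polycomb differs between them too.

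Where H3K36me3 was present, its balance between the flanks leaned to 1 side, over all H3K4me3 peaks more so than at positions along the chromosomes. Asymmetry was taken as the difference between the flanks' H3K36me3 bases divided by their sum, so that 0 means equal flanks and 1 means that all of it lies on 1 side. Over the 13315 peaks with at least 2 kb in both flanks together, the median was 0.768 (95% interval from order statistics 0.752 to 0.783). In 38.9% of them the value was exactly 1, and in 14.97% it was 0.2 or less. Positions every 1000 bases had a median of 0.580, with 29.6% at exactly 1 and 19.9% at 0.2 or less. H3K27ac peaks without H3K4me3 had a median of 0.553. The 2616 measurable H3K4me3 peaks scoring below 100 had 0.563, no higher than the positions.

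**Figure D2:**
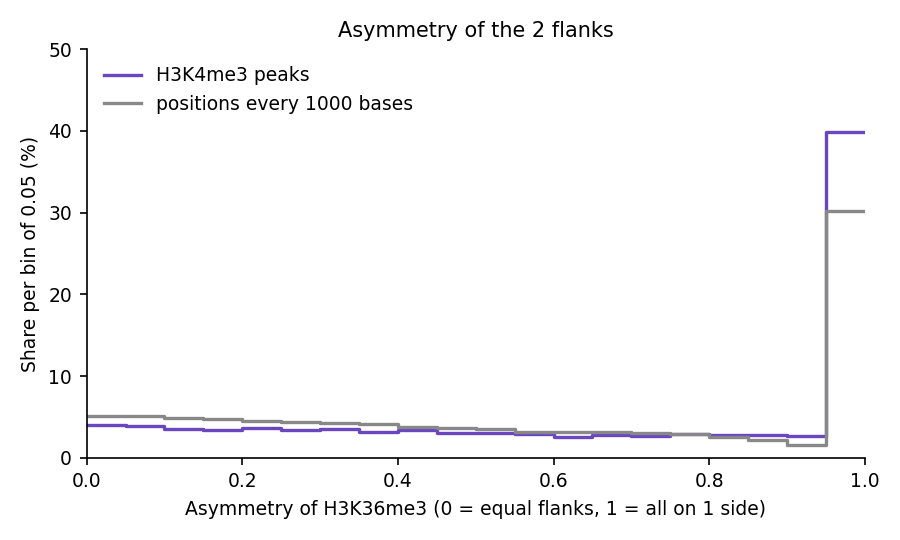
Distribution of the asymmetry of H3K36me3 between the flanks, from 0 (equal) to 1 (all on 1 side), as the share (%) of H3K4me3 peaks (purple) or positions every 1000 bases (grey) in each bin of 0.05. H3K4me3 peaks exceed the positions in the last bin and lie below them at the equal end.

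The median asymmetry was above that of the chromosome's own positions on 21 of 22 chromosomes, and ran from 0.520 on chromosome 19 to 1.00 on chromosome 13. Peaks with H3K27ac only had a median of 0.795, and the 525 measurable peaks with H3K27me3 only had 1.00. Peaks with neither K27 mark were the most even of the groups by K27 mark, at 0.465. Peaks with no other H3K4me3 peak within 30 kb had a median of 1.00, and only 5.51% of those 10015 peaks had 2 covered flanks. The share with 2 covered flanks was thus lower when crowded H3K4me3 peaks were left out, and it was 8.16% of all peaks when a flank needed 20% coverage.

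Measured as distance, the nearer H3K36me3 region lay at a median of 8047 bases from the peak edge (quartiles 887 and 60212). The farther one lay at 76849 bases (15640 and 303014). Positions had medians of 76987 and 309014 bases, so the farther side of an H3K4me3 peak was about as far from H3K36me3 as the nearer side of a position. A region lay within 10 kb on the nearer side of 52.5% of peaks and on the farther side of 19.9%. For peaks with H3K27ac only the nearer median was 2704 bases, and for those with H3K27me3 only it was 51198. Over peaks with no other H3K4me3 within 30 kb, the nearer median rose to 23360 bases.

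In the 7622 peaks with 1 covered flank, H3K36me3 began close to the peak on that side. The first region lay at a median of 2257 bases from the peak edge (quartiles 191 and 6996), and it reached the edge itself in 22.4% of peaks. On the other side the median was 33830 bases. The rule asks for H3K36me3 within 30 kb on 1 side and for little on the other, so it partly sets both distances. No like distance is given for positions with 1 covered flank. The gap on the H3K36me3 side was 787 bases for peaks of 3 kb and more and 4238 bases for peaks of 1 to 2 kb. Counted from the peak centre the medians came closer, 2929 and 4969 bases.

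K27 state also went with this gap. With H3K27ac only, the median gap was 1964 bases and 14.1% of gaps exceeded 10 kb. With H3K27me3 only, in 366 peaks, the median was 12247 bases and 58.7% exceeded 10 kb. Where a Polycomb-marked H3K4me3 peak did have an H3K36me3 flank, that H3K36me3 was thus set well away from it.

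Peaks with 2 covered flanks were of several kinds. Of the 4059, 2080 (51.2%) lay between 2 separate H3K36me3 regions, 1453 (35.8%) lay inside 1 region, and 526 (13.0%) had an edge in a region. Those between regions sat in a gap with a median length of 13365 bases (quartiles 8523 and 19572). The median H3K4me3 peak in such a gap was 2039 bases wide. H3K36me3 lay at medians of 1731 bases on the nearer and 8681 bases on the farther side of these peaks. Its presence within 30 kb on either side is required by the rule for 2 covered flanks.

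Most H3K4me3 peaks shared no base with H3K36me3, yet the average overlap was above the share of the span in H3K36me3. Of all H3K4me3 peaks, 23320 (85.1%) shared no base with an H3K36me3 peak, 3064 shared less than 90% of their length, and 1031 (3.76%) had 90% or more of their bases in H3K36me3. On average 7.48% of an H3K4me3 peak lay in H3K36me3, against 3.76% of the span. The share without a common base is not given for other intervals of like width, so 85.1% has no background here. The partly covered peaks were the strongest, with medians of 2479 bases in width and 2291 in score, and H3K27ac at 85.3%. The 1031 covered peaks were narrow and weak, with medians of 634 bases in width and 69.3 in score, and 79.0% scored below 100. Of them 19.7% touched H3K27ac, against 61.1% of peaks free of H3K36me3. How many of these weak peaks would be called in each replicate is not known from the combined list.

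The 5 widest covered peaks, picked for width, all scored above the median of the covered peaks but differed in H3K27ac. The widest, on chromosome 16 from 87892914 to 87903151 (hg19), measured 10238 bases, had 92.5% of its bases in H3K36me3 and 100% in H3K27ac, and had H3K36me3 on its lower-coordinate side only, 24.6 kb against 0. The second, chromosome 17 from 38650311 to 38658132, was likewise acetylated along its whole length. The fourth, chromosome 1 from 149284743 to 149288935, was covered in full by both H3K36me3 and H3K27me3. It had no H3K36me3 in either flank.

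Turning the 7622 peaks with 1 covered flank so that H3K36me3 points the same way allowed the other marks to be compared between the sides. Only H3K36me3 decided the turning, so no other mark entered the rule itself. Marks that share or avoid bases with H3K36me3 are still not independent of it. H3K4me1 was higher on the H3K36me3 side and H3K27me3 was lower there. H3K27ac next to the peak was even over all of these peaks, though not in each subset of them. H3K36me3 itself, just outside the flank that the rule used and often in the same regions, covered 20.98% of bases from 30 to 50 kb on that side and 7.69% on the other.

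H3K4me1 covered 41.5% of the first 2 kb from the edge on the H3K36me3 side and 30.2% on the other side, a ratio of 1.37. From 2 to 5 kb it covered 27.5% and 19.02%. Each of these differences had the same direction on 22 of 22 chromosomes. Over 2 to 30 kb the levels were 21.3% and 15.9%, a ratio of 1.34 with the same direction on all 22.

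H3K27ac was nearly even within 2 kb of the edge, at 26.1% against 25.6%, and the H3K36me3 side was the higher on 13 of 22 chromosomes. From 2 to 5 kb it was 13.6% and 13.7%. Subsets differed there in opposite directions. The 6387 peaks scoring 100 or more had 13.1% and 11.8%, higher on the H3K36me3 side on 18 chromosomes. The 1057 peaks without H3K27ac had 7.26% and 10.9%. Over all 7622 peaks a difference appeared farther out. From 10 to 20 kb H3K27ac covered 12.03% on the H3K36me3 side and 9.37% on the other, higher on 20 chromosomes. Other H3K4me3 peaks were also denser there, 4.76% against 3.56% over 2 to 30 kb. Their part in the outer H3K27ac difference was not tested, but among the 2220 peaks with no other H3K4me3 within 30 kb the H3K27ac ratio over 2 to 30 kb was 1.16, and the H3K36me3 side was higher on 14 chromosomes. In these isolated peaks the H3K4me1 ratio within 2 kb was 1.65, from 43.4% and 26.4%.

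H3K27me3 was the reverse of H3K4me1. Over 2 to 30 kb it covered 1.02% of the H3K36me3 side and 4.16% of the other side, a ratio of 0.245, and was lower on the H3K36me3 side on 22 of 22 chromosomes. The other side was close to the 4.83% and 4.75% found on the lower- and higher-coordinate sides of H3K4me3 peaks with no covered flank. Within 2 kb of the peak the sides were nearer to each other, at 3.23% and 4.48%. In the 366 one-sided peaks with H3K27me3 only, Polycomb coverage from 20 to 30 kb was 2.20% on the H3K36me3 side and 14.2% on the other.

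**Figure D3:**
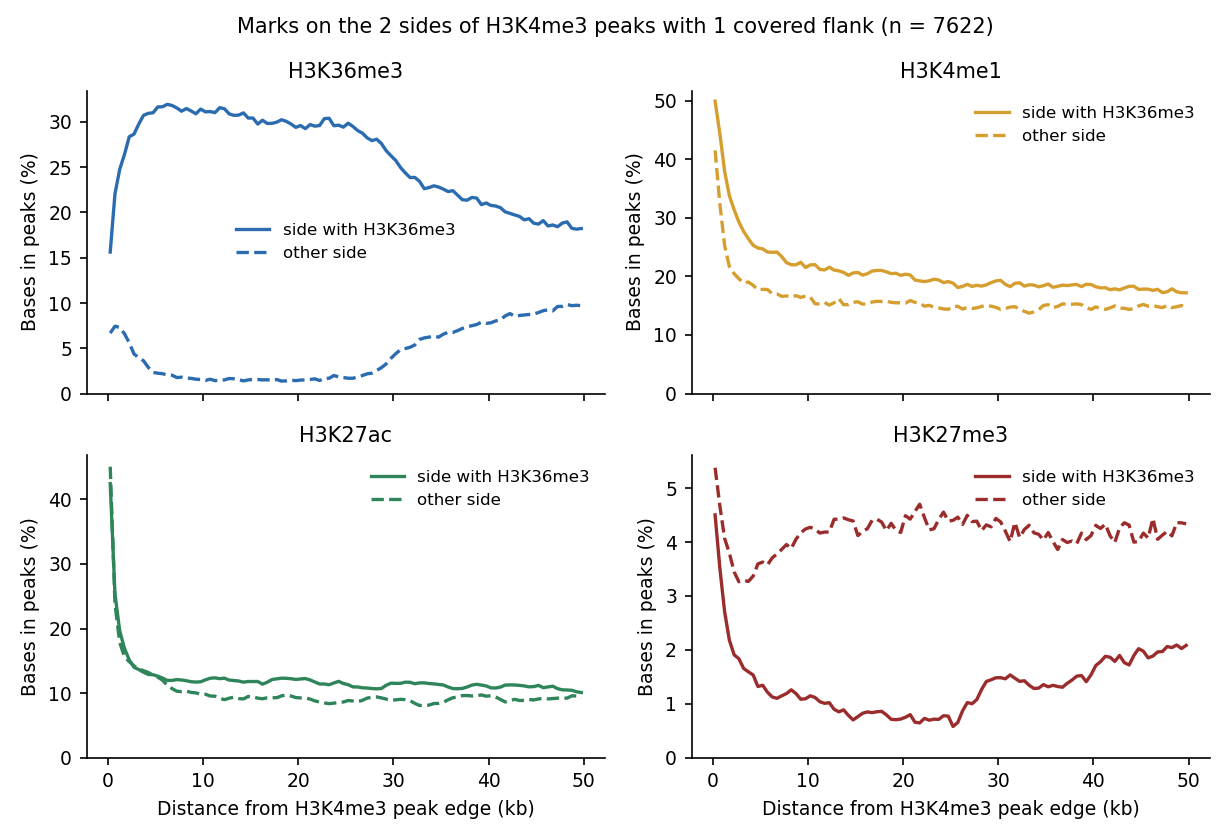
Share of bases (%) in peaks of 4 marks, in bins of 500 bases out to 50 kb from the edge of the 7622 H3K4me3 peaks with 1 covered flank, on the H3K36me3 side (solid) and the other side (dashed). The first panel follows from the rule between 2 and 30 kb. H3K4me1 is higher and H3K27me3 lower on the H3K36me3 side. H3K27ac over all these peaks is alike on both sides within 5 kb.

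The H3K4me1 difference next to the peak was smaller where H3K36me3 began farther out, and over the whole flank it was not. In 2493 peaks with no H3K36me3 region within 5 kb on that side, a set chosen after the values above were known, H3K4me1 from 2 to 5 kb covered 22.6% against 17.7% and was higher on 20 of 22 chromosomes. Within 2 kb it was 30.2% against 26.99%, a ratio of 1.12. Over 2 to 30 kb the ratio was 1.36, against 1.34 for all one-sided peaks. H3K27ac in these peaks did differ from 2 to 5 kb, at 15.7% against 10.6%. Other H3K4me3 peaks were denser there too, at 7.04% against 4.18%, and their part in the H3K27ac difference was not tested. Among the 1057 one-sided peaks without H3K27ac, the H3K4me1 ratio was 1.05 within 2 kb and 1.33 over 2 to 30 kb.

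Seen from H3K36me3, nearly 3 in 4 of the larger regions had H3K4me3 at an end. H3K4me3 lay within 10 kb of exactly 1 end in 2633 of the 5428 regions, 48.5% (47.2 to 49.8), and of both ends in 1288, 23.7% (22.6 to 24.9). In 1458 regions, 26.9% (25.7 to 28.1), there was none at an end or inside. In 49, 0.903%, it lay only inside, more than 10 kb from either end. By that rule none of the 2735 regions shorter than 20 kb could hold a peak inside. Of the 10856 ends, 50.8% had H3K4me3 within 10 kb, against 16.1% of positions every 1000 bases.

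These shares depend on what counts as an end and as a region. With H3K4me3 counted only within 5 kb of an end, regions with H3K4me3 at both ends fell to 14.2%, and within 20 kb they rose to 35.7%. With regions from 2 kb of H3K36me3 upward, those with no H3K4me3 were 40.8%, and with joining over 20 kb they were 10.8%. The share with H3K4me3 at 1 end moved least, from 43.1% to 57.1% over these and the other settings tried.

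H3K4me3 was concentrated just outside the ends. Windows of 10 kb on either side of an end held 33.4 H3K4me3 peaks per Mb, the interior of regions 13.8, and the rest of the span 7.78. Peak centres were most frequent 1 to 2 kb outside an end, with 10.3 peaks per 100 ends, and fell to 2.47 in the first kb inside. From 1 to 9 kb inside, bins held 1.54 to 2.08 peaks per 100 ends, against 2.03 to 2.65 from 10 to 20 kb outside.

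**Figure D4:**
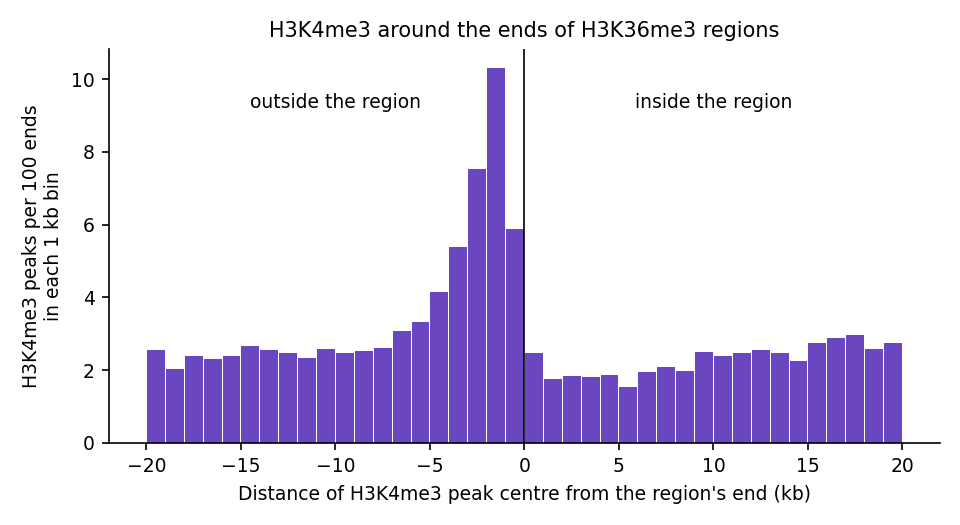
H3K4me3 peaks per 100 ends of H3K36me3 regions, by distance (kb) of the peak centre from the end in bins of 1 kb, for the 10856 ends of the 5428 regions; negative distances lie outside the region. The highest bin, 10.3 per 100 ends, is 1 to 2 kb outside.

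In the 2633 regions with H3K4me3 at 1 end, the nearest peak lay wholly beyond the end in 68.0%, over it in 22.3% and wholly within in 9.72%. Where it lay beyond, the median gap was 1860 bases. The end with H3K4me3 was the lower-coordinate one in 1339 regions, 50.9% (48.9 to 52.8), so neither direction along the chromosome was favoured beyond counting error.

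Regions with more H3K36me3 less often had no H3K4me3, and up to 40 kb they more often had it at both ends. With 5 to 10 kb of H3K36me3, 15.8% of 2707 regions had it at both ends and 35.4% had none. With 20 to 40 kb, the values were 38.05% and 14.02% of 820 regions. At 40 kb and more, 72 of 200 regions had it at both ends and 12.5% had none. A peak inside was held by 41.5%, including the 8% with H3K4me3 only there. The share with 1 end changed little, from 48.8% in the smallest class to 43.5% in the largest. Chromosome 19 had both ends marked in 52.2% of its regions, and chromosome 18 had none in 43.3%.

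The end that carries H3K4me3 was also the more acetylated. In the 10 kb outside that end H3K27ac covered 35.0% of bases, against 8.02% outside the other end, and H3K4me1 covered 30.1% against 18.8%. H3K4me3 peaks at region ends touched H3K27ac in 87.3% and H3K4me1 in 78.6%, so neither difference is independent of how the end was chosen. Inside the region the first 10 kb had 28.1% H3K4me1 at the H3K4me3 end and 17.4% at the other. H3K4me3 itself covered 5.45% and 1.20% of these bases, so this difference is not independent of the choice either.

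Along regions with H3K4me3 at 1 end, H3K36me3 showed no slope. From the H3K4me3 end to the middle of the region 58.3% of bases lay in H3K36me3 peaks, and beyond the middle 58.4%. The side beyond the middle held more in 49.2% of regions (47.3 to 51.1). Coverage of the last 25% of the length over that of the first 25% was 0.993, and from 0.976 to 1.01 over the other settings, on either side of equality. The highest-scoring H3K36me3 peak lay beyond the middle in 49.2% of regions, and median peak scores were 130 before the middle and 126 beyond it. The result is for bases in peaks, and read depth within peaks was not analysed here. With regions cut into 10 equal parts, the first and the last stood higher in every class because a region begins and ends with a peak by construction.

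Regions differed in filling by class. The inner 8 parts were covered at 65.1% to 67.2% in regions with H3K4me3 at both ends, at 54.6% to 56.8% with 1 end, and at 45.7% to 48.2% with none. These classes also differ in size, as given above.

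**Figure D5:**
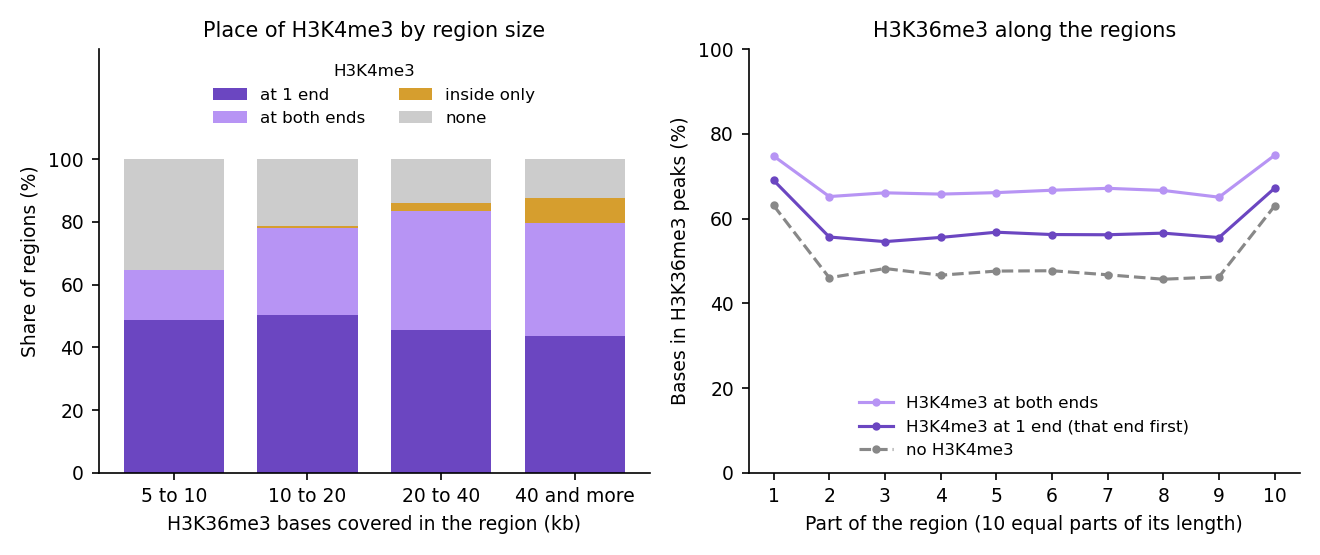
Left, share (%) of H3K36me3 regions with H3K4me3 at 1 end, at both ends, inside only or not at all, by kb of H3K36me3 covered. Right, bases in H3K36me3 peaks (%) in 10 equal parts of the region's length for 3 classes, with the H3K4me3 end first where there is 1. None falls from 35.4% to 12.5% with size, and coverage is flat between the outermost parts.

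For the 1458 regions without H3K4me3, the nearest H3K4me3 peak lay at a median of 28092 bases (quartiles 17485 and 45829). It lay within 30 kb in 53.5% and beyond 100 kb in 4.80%. H3K27ac lay within 10 kb of an end in 58.5% of these regions and H3K4me1 in 94.4%, while H3K27me3 did so in 3.77%. Counted in or within 10 kb of the region, H3K27ac was at 59.8% of them and H3K4me1 at 94.9%. In regions with H3K4me3 at 1 end these shares were 97.6% and 99.4%, and with both ends 99.6% and 99.5%. Their median length was 18836 bases and that of regions with 1 end 19471. A peak that missed the calling threshold would also be counted as no H3K4me3.

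H3K4me3 peaks at region ends differed from the rest in make-up. The 6420 peaks at an end, 23.4% of all, had a median width of 2133 bases and touched H3K27ac in 87.3%, H3K4me1 in 78.6% and H3K27me3 in 3.26%. The 20451 peaks away from the larger regions had a median width of 1157 bases and touched H3K27ac in 54.6%, H3K4me1 in 41.6% and H3K27me3 in 19.5%. The 544 inside had a median width of 1022 bases and touched H3K27ac in 54.4%, H3K4me1 in 62.3% and H3K27me3 in 0.735%.

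Single regions show the classes. The region with most H3K36me3 ran on chromosome 20 from 45836235 to 45983986 (hg19), 126 kb covered in 148 kb, and had H3K4me3 over its upper-coordinate end only. It held 4 further H3K4me3 peaks inside, and 41.1% of it was H3K27ac. The region of chromosome 20 from 46255140 to 46411727, with 112 kb covered, also had H3K4me3 at its upper end only, 157 bases beyond it, but just 2.37% H3K27ac. On chromosome 9, 130189283 to 130330983 had H3K4me3 at both ends. In the fourth, on chromosome 8 from 48683879 to 48891154, 105 kb in 207 kb was covered by 129 H3K36me3 peaks, and H3K4me3 lay only inside, at 3 places.

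Of the 10 regions with most H3K36me3, 7 had H3K4me3 at 1 end, 2 at both and 1 inside only. At chromosome 7 from 5345233 to 5457098 the H3K4me3 peak 1700 bases beyond the upper end was 11459 bases wide. H3K27me3 was at 0 in each of the 10. The 5 largest regions without H3K4me3 lay on chromosomes 3, 9, 7, 10 and 1, the first from 58062267 to 58157826 with 72.2 kb covered. The second, on chromosome 9 from 136664985 to 136751006, had 25.4% H3K27ac, and the other 4 had at most 8.05%.

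The most one-sided H3K4me3 peak was that on chromosome 1 from 148246429 to 148248640, with 28.0 kb of H3K36me3 in its upper flank, the whole of it, and 0 in the lower. It sat 713 bases outside the sixth-ranked region. Its lower flank held H3K27ac, H3K4me1 and H3K27me3, at 16.2%, 15.3% and 11.5%, and none of these was listed in the upper flank. The next 2 peaks faced each other on chromosome 4, from 132645566 to 132647176 and from 132683580 to 132684256, across a stretch with 27.8 kb of H3K36me3 in the flank of the first. No other mark was listed in any flank of this pair. H3K27ac covered 98.4% of the first peak and none of the second, which scored only 57.2.

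The peak on chromosome 5 from 149736817 to 149739129 was of the common kind, with 97.5% of its bases in H3K27ac, 27.2 kb of H3K36me3 in the upper flank and 0 in the lower. One of the 10 was a Polycomb peak. On chromosome 20 from 62669018 to 62671174, H3K27me3 covered 38.4% of the peak and 25.8% of the upper flank, and H3K36me3 covered 26.0 kb of the lower. The peaks with most H3K36me3 in the lesser flank were led by chromosome 20 from 45946457 to 45948672, inside the largest region, with 26.4 and 25.7 kb. The other 4 lay on chromosomes 9 and 5 and each had H3K27ac over at least 99.5% of its bases.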

How the data were processed

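Sonicated chromatin of RWPE-1 cells was immunoprecipitated for 5 histone marks and sequenced, per the labels' protocols. The submitters' processing notes name CASAVA 1.8.2, Bowtie2, MACS 1.4 and build hg19. The labels describe each list as the combined replicates of a mark. No source used here gives the control, the settings, the read depth, or whether reads or peaks were combined.

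Each list deposited by the authors holds positions and 1 score per peak. No header defines the score. The lowest value in each list was 50.0 or just above, and scores served only for ranking and filtering inside 1 list. A caller for narrow peaks splits broad H3K36me3 into short peaks, which is why peaks were joined.

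Members, groups and settings were chosen with earlier results of these data known. Distances and coverage were computed with Python 3.11.15, numpy 2.4.6 and pandas 2.3.3, drawn with matplotlib 3.10.9, and tested on simulated intervals. Peaks touched when they shared a base. Positions are hg19, counted from 1. Shares carry 95% Wilson intervals. Peaks are not replicates, so chromosomes give the only spread shown. Named items were the 10 regions with most H3K36me3, the 5 largest without H3K4me3, the 10 peaks with the largest flank difference, the 5 with most in the lesser flank, and the 5 widest with at least 90% in H3K36me3. Other settings were another joining gap, flank, coverage minimum, end distance, region minimum, score minimum, chromosome X added, joined H3K4me3, isolated H3K4me3, chromosome 19 left out and H3K4me3 without H3K36me3 in the nearest 5 kb. Genes are not named and sequences not shown, because no hg19 annotation or genome was used. Not analysed here were the input library, the DNase library and, outside 1 alternative with X, peaks beyond chromosomes 1 to 22.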

Additional observations from a re-analysis of the deposited data

How the results depend on the processing

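H3K27ac and H3K4me1 stayed higher on the H3K36me3 side under the settings in which they were computed, which leave out the joining gap, the end distance and the region minimum. The sizes of the 10 results moved. The length ratio, near 1 throughout, fell on either side of it, from 0.976 to 1.01. In what follows, ratios of H3K27ac and H3K4me1 are coverage of the H3K36me3 side over the other side, and the length ratio is H3K36me3 in the last 25% over the first 25% of the length of regions with H3K4me3 at 1 end. With scores of at least 100 in each list, 1 covered flank was found in 31.0% and 2 in 13.3%, median asymmetry was 0.910 and the nearer distance 10047 bases, H3K4me3 was at both ends in 19.7% and absent in 31.8% of regions, and the ratios were 1.20 (H3K27ac), 1.33 (H3K4me1) and 1.01 (length). With X added, the flank shares were 26.96% and 14.2% and the distance 8844 bases. With joining over gaps of 1 kb, 43.6% of regions had H3K4me3 at 1 end, 19.6% at both and 36.9% none, with a length ratio of 1.00. With 20 kb, 57.1% had it at 1 end and 10.8% had none, with a length ratio of 0.976.

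Flanks of 2 to 15 kb gave 12.3% with 2 covered flanks, an asymmetry of 0.877 and an H3K27ac ratio of 1.07. Flanks of 5 to 50 kb gave 16.0%, 0.711 and 1.31. Calling a flank covered from 5% gave 30.4% with 1 and 20.7% with 2, and ratios of 1.30 (H3K27ac) and 1.43 (H3K4me1). From 20% the values were 22.7%, 8.16%, 1.05 and 1.20. H3K4me3 within 5 kb of an end gave 14.2% of regions with both ends and 33.6% with none. Within 20 kb, 45.9% had 1 end, 35.7% both and 18.2% none. Regions from 2 kb of H3K36me3 gave 43.1% with 1 end, 15.6% with both and 40.8% with none. Regions from 10 kb gave 31.6% with both, 18.4% with none and a length ratio of 1.01.

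H3K4me3 peaks joined over 2000 bases gave 14.2% with 2 covered flanks, asymmetry 0.784, distance 8618 bases and ratios of 1.24 (H3K27ac) and 1.33 (H3K4me1). Only H3K4me3 peaks with no other within 30 kb gave 22.2% and 5.51% with 1 and 2 covered flanks, asymmetry 1.00, distance 23360 bases and ratios of 1.16 and 1.49. Without chromosome 19, a setting chosen after seeing the data, the flank shares were 27.2% and 12.5%, asymmetry 0.799, distance 9606 bases, both ends 20.8%, none 28.9%, and the ratios 1.19 (H3K27ac) and 1.36 (H3K4me1). Where no H3K36me3 region lay within 5 kb on that side, also chosen after seeing the data, the ratios were 1.54 and 1.36. The cause of these shifts was not tested, beyond the settings' own construction.

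No paired analysis was possible because each mark has 1 combined list, and for the same reason no setting without a replicate was run. Read depth is unknown, and marks below the calling threshold are not listed. Assembly gaps and stretches without mapped reads were not removed from the positions.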

Other observations

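Polycomb near H3K36me3 regions differed with the number of ends that had H3K4me3. H3K27me3 lay within 10 kb of, or in, 18.7% of the regions with H3K4me3 at both ends, 9.49% of those with 1 end and 3.77% of those with none, although it covered under 1% of the bases inside any of these classes. H3K27ac covered 12.4%, 9.002% and 4.99% of the bases of these regions, and H3K4me1 23.3%, 21.8% and 13.7%. The classes are set by H3K4me3 within 10 kb of the ends. H3K4me3 peaks there touched H3K27ac in 87.3%, H3K4me1 in 78.6% and H3K27me3 in 3.26%. The classes also differ in size, so these differences are not independent of how the classes were made.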
